A study of Mus musculus with 18 samples.

Results

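A set of 9 ligands of the tumor necrosis factor (TNF) family that T cells make was followed in cultured CD4 T cells. They were Lta, Ltb, Tnf, Cd40lg, Tnfsf8, Tnfsf11, Tnfsf14, Tnfsf10 and Fasl, the 9 entries of the deposited table, out of 36528, that carry one of these symbols. The RNA came from splenic CD4 T cells of NZB/W F1 females, the lupus-prone cross of the NZB and NZW strains, aged 21 to 27 weeks and with proteinuria of 30 to 100 mg/dL. Cells were held for 48 hours with IL-2 at 10 U/mL, in wells of 250000 cells, with 25 µg/mL of antibody, either anti-Ox40 of the IgG1 class or a matched IgG1 control (control Ig). Beads carrying anti-CD3 and anti-CD28, which engage the T cell receptor complex and its costimulatory partner, were left out (no beads) or added at 0.1 (low beads) or 1 (high beads) per cell. The 6 groups of antibody and bead dose held 3 libraries each, 18 in all, and every group shared the strain, the IL-2 and an IgG1. The labels do not say whether the 3 libraries of a group came from separate mice or wells, so each p-value below measures only the spread between libraries, which may be technical.

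TNF family ligands are made as trimers on the cell surface, and some are cut off to act at a distance. They signal through receptors of the matching family, which recruit TRAF adaptors to turn on NF-kB or carry death domains that start cell death. Ox40 is itself one of these receptors on activated T cells. Lymphotoxin-α (Lta) is secreted as a trimer that binds the TNF receptors, or is held at the membrane by lymphotoxin-β (Ltb) in a mixed trimer that binds the lymphotoxin-β receptor and shapes lymphoid tissue. CD40 ligand (Cd40lg) delivers T cell help to B cells, CD30 ligand is Tnfsf8, RANKL (Tnfsf11) drives osteoclasts and dendritic cell survival, and LIGHT (Tnfsf14) binds HVEM and the lymphotoxin-β receptor. TRAIL (Tnfsf10) and Fas ligand (Fasl) are death ligands.

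Ltb, Tnf and Lta lie beside each other on chromosome 17 in the GRCm38 assembly. Ltb occupies 35194507 to 35196305 on the plus strand, Tnf 35199367 to 35202007 on the minus strand and Lta 35203165 to 35205578 on the minus strand. Tnf lies 3061 bases from Ltb and 1157 bases from Lta. Tnfsf14 is on the same chromosome at 57189474 to 57194181. The other members lie apart, Cd40lg on chromosome X at 57212143 to 57224042, Tnfsf8 on chromosome 4 at 63831202 to 63861508, Tnfsf11 on chromosome 14 at 78277446 to 78308043, Tnfsf10 on chromosome 3 at 27317077 to 27339665 and Fasl on chromosome 1 at 161780691 to 161788495. Annotated microRNA genes lie within Lta (Mir6974) and Ltb (Mir6973a) on the same strand, and reads shared with them cannot be told apart.

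RefSeq sequence of the 250 bases before the start site, on GRCm38.p6, was found for 8 of the 9 members, all but Cd40lg. This is C57BL/6J reference sequence and not that of NZB/W F1 mice. The 3 windows below are shown because anti-Ox40 changed the mRNA of these genes at high beads, upward for Tnf and Tnfsf14 and downward for Tnfsf11, and because no annotated gene overlaps them. Each is on the gene's strand, the minus strand, at chr17:35202008-35202257 for Tnf, chr14:78308044-78308293 for Tnfsf11 and chr17:57194182-57194431 for Tnfsf14. Capitals mark matches to GGGANNNNCC (a form of the NF-kB motif), TGANTCA (AP-1) and TATAAA (the TATA box), on either strand.
Tnf: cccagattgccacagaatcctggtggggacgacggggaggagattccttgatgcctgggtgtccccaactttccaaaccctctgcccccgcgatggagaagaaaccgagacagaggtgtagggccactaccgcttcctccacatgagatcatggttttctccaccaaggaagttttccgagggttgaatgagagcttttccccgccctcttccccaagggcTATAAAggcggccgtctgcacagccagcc
Tnfsf11: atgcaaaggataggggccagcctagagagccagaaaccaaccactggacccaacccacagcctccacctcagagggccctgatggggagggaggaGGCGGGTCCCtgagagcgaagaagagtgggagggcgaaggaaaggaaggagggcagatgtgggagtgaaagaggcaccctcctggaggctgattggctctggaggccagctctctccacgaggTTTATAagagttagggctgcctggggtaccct
Tnfsf14: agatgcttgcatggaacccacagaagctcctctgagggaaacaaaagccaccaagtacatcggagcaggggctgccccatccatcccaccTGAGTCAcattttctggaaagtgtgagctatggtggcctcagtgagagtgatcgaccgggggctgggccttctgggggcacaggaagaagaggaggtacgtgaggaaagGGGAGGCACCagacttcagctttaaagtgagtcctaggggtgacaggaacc

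The Tnf window held TATAAA 29 to 24 bases before the start site and no match to the other capitalised motifs. Tnfsf11 held a match to the NF-kB form 155 to 146 bases before its start, and TATAAA on the opposite strand 32 to 27 bases before it. Tnfsf14 held the AP-1 motif from 160 to 154 bases before its start and the NF-kB form from 51 to 42. Of the other windows, that of Ltb held the NF-kB form as GGAAAGTCCC, 87 to 78 bases before the start, where it overlaps the NFAT core GGAAA. That of Lta held TATAAA 167 to 162 bases before the start site used. Both of these windows overlap annotation of their own gene. The Lta window, chr17:35205352-35205601, lies largely within the extent of Lta given above, and so does its TATAAA. Of 27025 mouse promoters of the same length, 17.3% held the NF-kB form, 6.87% the AP-1 motif, 13.0% TATAAA and 55.6% GGAAA. These matches describe letters in a window only.

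All values are nRPKM, reads per kilobase of gene and per size of library with a further scaling by the authors, so levels can be compared between genes. A value of 1 over 1 kilobase stood for 26.3 to 45.7 reads, depending on the library. All 9 members passed the filter of at least 1 nRPKM in at least 3 libraries, with 13075 genes tested. Fasl was the scarcest member, at 1 or more in 13 of 18 libraries and with a lowest value of 0.674, about 42 reads. The 7 CD4 T cell markers with an entry summed to between 1126 and 1613 nRPKM in every library, while Cd8a stayed at or below 0.433 and Cd8b1 at or below 6.52. Replicate 3 of every group had the most B cell marker RNA, up to 55.3 nRPKM in sum over 10 markers. The 9 myeloid markers with an entry summed to 222 to 313 nRPKM without beads, 15.4 to 30.0 with low beads and 5.55 to 12.3 with high beads, and of these Csf3r was at 0 in 3 libraries and C1qa in 6. Dendritic cell markers summed to at most 4.48. Lung epithelial transcripts, foreign to spleen, were at most 0.107 in sum without beads and reached 215 with beads. In such bulk RNA, fewer cells of a type and less RNA per cell cannot be told apart.

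Anti-Ox40 changed 6 of the ligands at high beads, in both directions. Lta was 2.15-fold as high as in control Ig cultures there, Tnfsf14 1.42-fold and Tnf 1.20-fold, while Cd40lg, Tnfsf11 and Tnfsf10 were lower. At low beads Lta was 1.49-fold, Ltb 1.19-fold and Tnfsf11 1.22-fold as high as with control Ig. Without beads no member passed the test. Called genes had a Benjamini-Hochberg adjusted p under 0.05 in limma on log2(nRPKM + 1), a scale that understates changes of low genes. At high beads 3 members were higher and 3 lower, where 26% of all genes tested were called (14.4% higher and 11.6% lower). At low beads 3 were higher and 0 lower, against 9.59% of all genes called (6.15% higher and 3.44% lower). Without beads 0 of 9 were called, against 0.138%, and 2 members and 519 genes had an unadjusted p under 0.05. The median log2 difference of the members was 0.01, 0.08 and -0.10 at no, low and high beads, against -0.01, 0.00 and 0.00 over all genes.

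**Figure D1:**
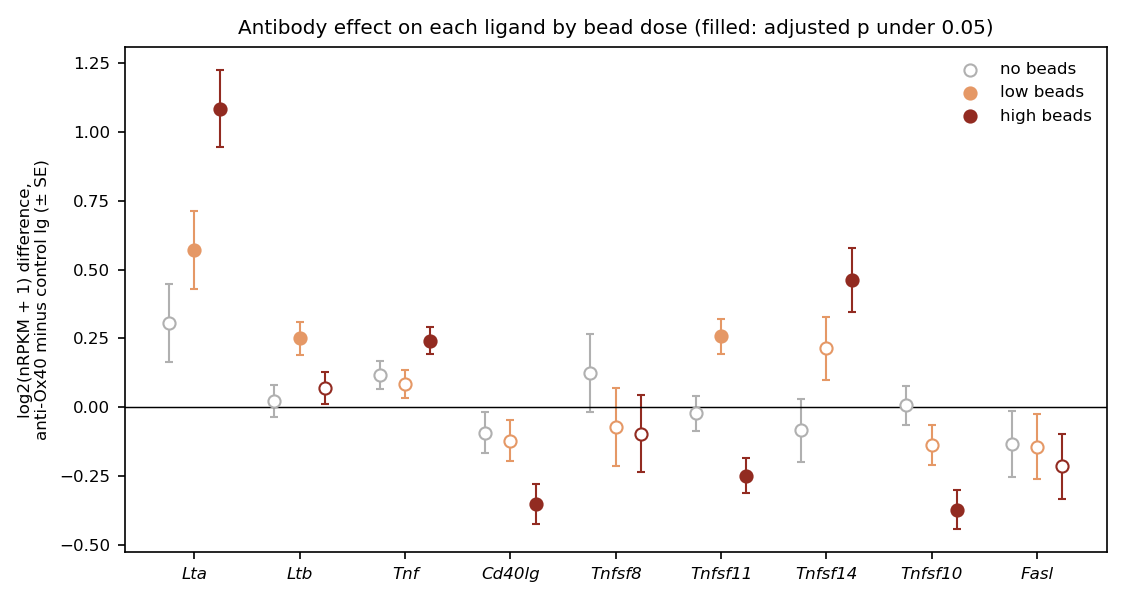
Log2 difference in nRPKM + 1 between anti-Ox40 and control Ig cultures for the 9 ligands at each bead dose (points, limma estimate; bars, standard error; filled points, adjusted p under 0.05). Lta stands highest at every dose and reaches 1.08 at high beads, where Cd40lg, Tnfsf11 and Tnfsf10 lie below 0.

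Lta, the secreted lymphotoxin, was the member that anti-Ox40 moved most. Without beads it measured 37.3, 42.4 and 35.7 nRPKM with anti-Ox40, against 31.2, 33.2 and 28.4 with control Ig. At low beads the values were 109.6, 119 and 104 with anti-Ox40, against 73.7, 73.5 and 75.2 with control Ig. At high beads they were 162, 146 and 104 with anti-Ox40, against 70.4, 70.1 and 50.9 with control Ig. Every anti-Ox40 library was above every control Ig library at each dose, although the difference without beads did not pass the test (log2 difference 0.31 ± 0.14 SE, limma adjusted p = 1). It reached 0.57 ± 0.14 with low beads (adjusted p = 0.0257) and 1.08 ± 0.14 with high beads (adjusted p = 0.000101). The low-bead call was lost with no filter (adjusted p = 0.0595) and held in 13 of 18 fits that left out a library. Replicate 3 was the lowest library in both high-bead groups.

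Beads raised Lta under either antibody. From the no-bead level it rose by 1.24 on the log2 scale at low beads in control Ig cultures (adjusted p = 1.5e-06) and by 1.50 in anti-Ox40 cultures (adjusted p = 1.15e-07). Between high and low beads neither step passed the test, at 0.28 ± 0.14 in anti-Ox40 cultures (adjusted p = 0.081) and -0.23 ± 0.14 in control Ig cultures (adjusted p = 0.151). The anti-Ox40 step was called without replicate 3 of anti-Ox40 at high beads (0.47, adjusted p = 0.00261) or replicate 3 of control Ig at high beads (0.28, adjusted p = 0.0472). It was also called with replicate number as a block, a pairing the labels do not give (0.28, limma adjusted p = 0.0227). Leaving out the 6 libraries richest in B cell markers gave a call too (0.43, limma adjusted p = 0.000957). With values rescaled to the library sum the control Ig step was -0.43 and was called (adjusted p = 0.0131). In order of level, the groups ran from anti-Ox40 at high beads (137 ± 30.2 nRPKM, SD, n = 3) and at low beads (111 ± 7.73) through control Ig at low (74.1 ± 0.95) and high beads (63.8 ± 11.2) to anti-Ox40 (38.5 ± 3.52) and control Ig (30.9 ± 2.40) without beads. Only the first pair of neighbours overlapped.

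Ltb, the membrane anchor of the mixed trimer, was by far the most abundant member and fell with bead dose. It measured 601, 631 and 639.9 nRPKM without beads with anti-Ox40, against 611, 638 and 594 with control Ig. Low beads gave 484, 475 and 485 with anti-Ox40, against 386, 437 and 391 with control Ig. At high beads the values were 247, 275 and 247 with anti-Ox40, against 233, 259 and 241 with control Ig. The antibody groups overlapped at no and high beads and were apart at low beads, where Ltb was higher with anti-Ox40 (0.25 ± 0.06, limma adjusted p = 0.022). That call was lost with no filter (adjusted p = 0.062) and with only the groups compared (adjusted p = 0.161). It was also lost without the 6 libraries richest in B cell markers (adjusted p = 0.357), and held in 13 of 18 fits that left out a library. At high beads the difference was 0.07, with a 95% interval of -0.05 to 0.20. At high against no beads Ltb fell by 1.28 in anti-Ox40 cultures (adjusted p = 5.32e-12) and by 1.33 in control Ig cultures (adjusted p = 4.47e-12).

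Tnf, the founding cytokine of the family, peaked at low beads. Without beads it was 12.8, 13.6 and 12.4 nRPKM with anti-Ox40, against 12.1, 11.4 and 12.04 with control Ig. The low-bead values were 18.3, 17.6 and 19.8 with anti-Ox40, against 17.5, 17.1 and 17.8 with control Ig. High beads gave 11.9, 12.8 and 11.4 with anti-Ox40, against 9.85, 10.0 and 10.1 with control Ig. The antibody groups did not overlap at no and high beads, and the test was passed at high beads (0.24 ± 0.05, limma adjusted p = 0.00246). Low beads raised Tnf by 0.49 in anti-Ox40 cultures (adjusted p = 3.42e-07) and by 0.52 in control Ig cultures (adjusted p = 2.42e-07). Relative to no beads, high beads lowered it by 0.22 in control Ig cultures (adjusted p = 0.000714). In anti-Ox40 cultures the same difference was -0.10 (adjusted p = 0.0864). It was called without replicate 3 of anti-Ox40 at no beads (-0.12, adjusted p = 0.0487) or without replicate 2 of anti-Ox40 at high beads (-0.14, adjusted p = 0.0231). It was also called with values rescaled to the library sum (-0.39, adjusted p = 7.12e-06) or median centred (-0.18, adjusted p = 0.00452).

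**Figure D2:**
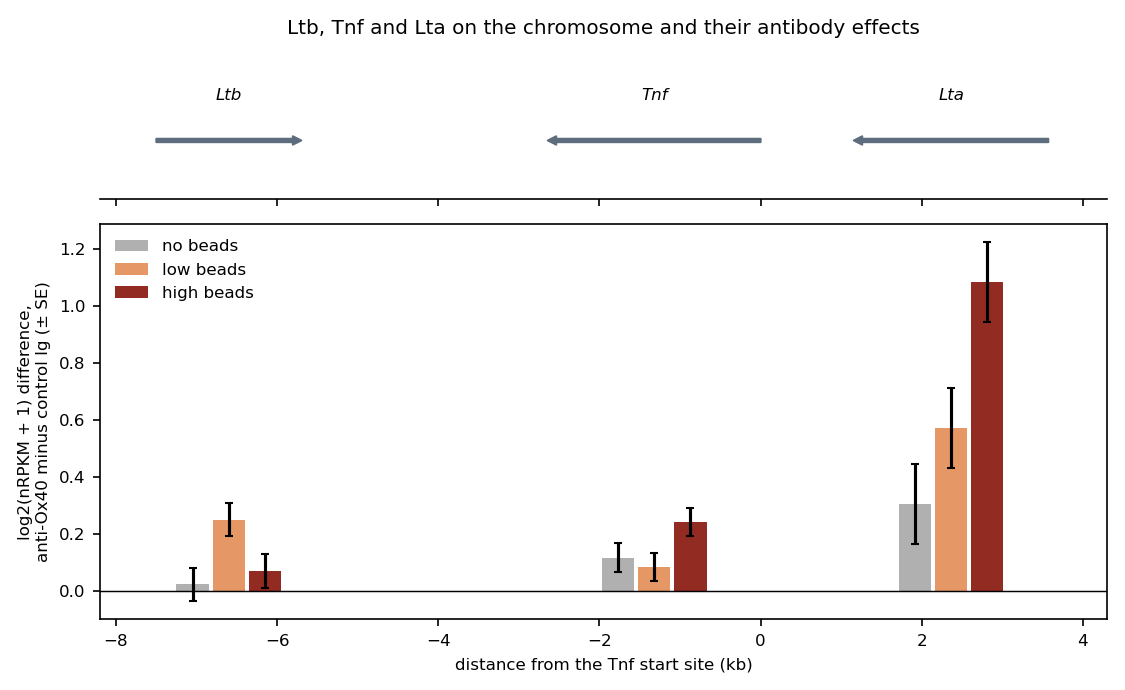
Top, positions of Ltb, Tnf and Lta as distance in kilobases from the Tnf start site, with arrows in the direction of transcription; bottom, log2 difference in nRPKM + 1 between anti-Ox40 and control Ig (bars, limma estimate; error bars, standard error) at the 3 bead doses. At high beads the difference is 1.08 for Lta, 0.24 for Tnf and 0.07 for Ltb.

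The ratio between the lymphotoxin chains separated by antibody at each dose, as a description with no test of its own. This ratio of Lta to Ltb was 0.0617 ± 0.0057 with anti-Ox40 and 0.0503 ± 0.0022 with control Ig without beads (SD, n = 3). It was 0.230 ± 0.019 with anti-Ox40 and 0.184 ± 0.014 with control Ig at low beads, and 0.535 ± 0.118 with anti-Ox40 and 0.262 ± 0.046 with control Ig at high beads. Every anti-Ox40 library lay above every control Ig library of its dose. Ltb made up 78.3%, 68.0% and 55.4% of the summed nRPKM of the 9 ligands at no, low and high beads with anti-Ox40. With control Ig its shares were 78.6%, 67.8% and 64.1%. Lta made up 4.83%, 15.6% and 29.3% with anti-Ox40, against 3.95%, 12.4% and 16.7% with control Ig.

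**Figure D3:**
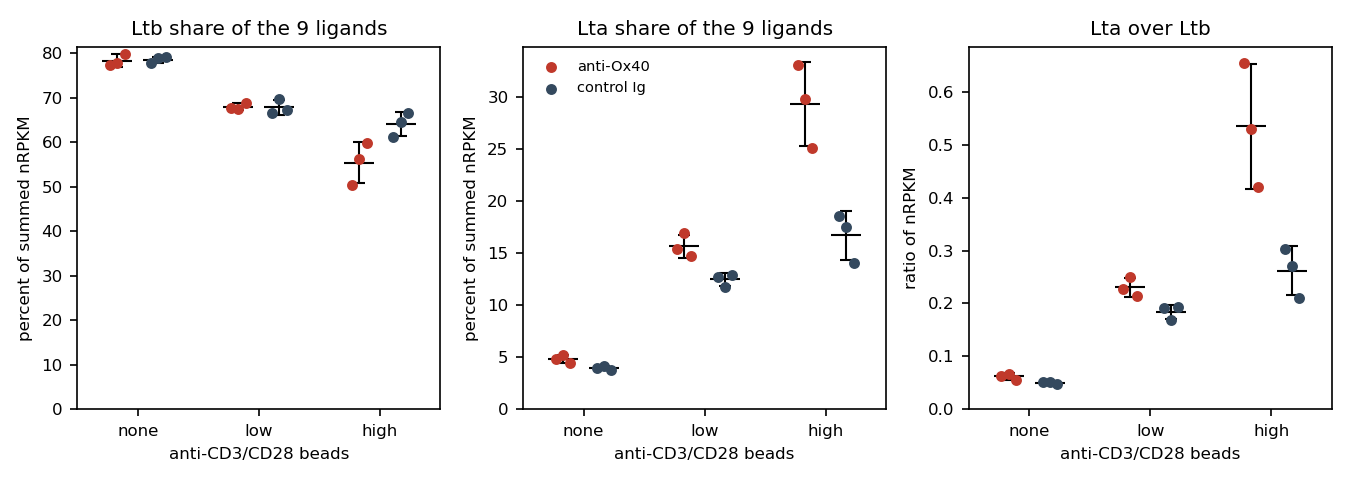
Share of Ltb (left) and Lta (middle) in the summed nRPKM of the 9 ligands, and the ratio of Lta to Ltb (right), by bead dose and antibody (points, libraries; lines, mean ± SD, n = 3). The Lta to Ltb ratio at high beads lies between 0.420 and 0.655 with anti-Ox40 and between 0.211 and 0.303 with control Ig.

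Cd40lg, the signal of T cell help to B cells, had the widest range of the members, with the highest library 10.5-fold above the lowest. Without beads it measured 72.6, 75.3 and 64.2 nRPKM with anti-Ox40, against 77.6, 80.3 and 68.4 with control Ig. At low beads it was 32.4, 29.6 and 32.2 with anti-Ox40, against 33.96, 33.0 and 35.8 with control Ig. High beads left 8.73, 9.22 and 7.62 with anti-Ox40, against 10.7, 11.3 and 11.4 with control Ig. All anti-Ox40 libraries were below all control Ig libraries at low and at high beads, and the high-bead difference passed the test (-0.35 ± 0.07, limma adjusted p = 0.00265). High beads lowered Cd40lg, relative to no beads, by 2.91 on the log2 scale in anti-Ox40 cultures (adjusted p = 5.76e-15) and by 2.65 in control Ig cultures (adjusted p = 1.53e-14). CD4 T cell markers were also lower at high beads with anti-Ox40, where 5 of 7 were called, against 11.6% of all genes lower. Cd3g (-0.47) and Cd3d (-0.40) were among the 5. The sum of the 7 markers was 1126 to 1212 nRPKM there, against 1372 to 1470 with control Ig. The part of these markers in the Cd40lg result was not tested.

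Tnfsf11 (RANKL) rose with anti-Ox40 at low beads and fell with it at high beads. It was 7.36, 6.68 and 7.497 nRPKM with anti-Ox40 without beads, against 8.004, 6.58 and 7.36 with control Ig. At low beads the values were 12.6, 11.3 and 12.1 with anti-Ox40, against 10.4, 9.73 and 9.44 with control Ig. At high beads they were 4.12, 3.96 and 3.79 with anti-Ox40, against 4.95, 5.05 and 4.64 with control Ig. The libraries separated by antibody at both bead doses, in opposite directions, by 0.26 ± 0.06 at low beads (limma adjusted p = 0.0261) and by -0.25 ± 0.06 at high beads (adjusted p = 0.00993). The low-bead call was lost with no filter (adjusted p = 0.0503) and with only the groups compared (adjusted p = 0.120). It held in 14 of 18 fits that left out a library. Without the 6 libraries richest in B cell markers neither call held (adjusted p = 0.365 at low and 0.107 at high beads). Across doses Tnfsf11 rose and then fell under either antibody. Low beads raised it by 0.67 in anti-Ox40 cultures (adjusted p = 1.59e-07) and 0.39 in control Ig cultures (adjusted p = 7.68e-05). Between high and low beads it fell by 1.39 in anti-Ox40 cultures (adjusted p = 5.76e-11) and by 0.88 in control Ig cultures (adjusted p = 8.38e-09).

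Tnfsf14 (LIGHT) was higher with anti-Ox40 at high beads, by 0.46 ± 0.11 (limma adjusted p = 0.00773). Its values there were 10.0, 8.92 and 10.2 nRPKM with anti-Ox40, against 5.58, 7.99 and 6.94 with control Ig. At low beads they were 6.82, 8.28 and 6.82 with anti-Ox40, against 5.93, 7.37 and 5.26 with control Ig, and the groups overlapped (0.21, adjusted p = 0.23). Without replicate 2 of control Ig at low beads that difference was called (0.33, adjusted p = 0.0447). Without beads Tnfsf14 was 6.84, 6.38 and 6.33 with anti-Ox40, against 7.51, 7.08 and 6.33 with control Ig. High beads changed it with anti-Ox40, by 0.51 between high and no beads (adjusted p = 0.00061), and by -0.03 with control Ig (95% interval -0.28 to 0.21, adjusted p = 0.788). With values rescaled to the library sum the control Ig difference was -0.29 and was called (adjusted p = 0.0192), and the anti-Ox40 difference was 0.23 and was not (adjusted p = 0.0588). The neighbouring groups of its order overlapped except the highest, anti-Ox40 at high beads.

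Tnfsf8, the ligand of CD30, rose with low beads and varied between libraries at high beads. Its levels ran from 23.8 to 28.2 nRPKM with anti-Ox40 and from 21.2 to 26.0 with control Ig without beads, and from 35.2 to 41.2 with anti-Ox40 and 38.1 to 41.5 with control Ig at low beads. At high beads they were 42.4, 30.5 and 25.7 with anti-Ox40, against 40.5, 31.6 and 31.8 with control Ig, with replicate 1 highest in both. No antibody difference passed the test, and at high beads it was -0.10 with a 95% interval of -0.40 to 0.20. The rise at low beads was 0.54 in anti-Ox40 cultures (limma adjusted p = 0.00287) and 0.74 in control Ig cultures (adjusted p = 0.0003). Between high and no beads it was 0.33 in anti-Ox40 cultures (adjusted p = 0.0404) and 0.55 in control Ig cultures (adjusted p = 0.00195). The anti-Ox40 call was lost without replicate 2 or 3 of anti-Ox40 at no beads (0.30 and 0.28) or without replicate 1 of anti-Ox40 at high beads (0.13, adjusted p = 0.294). It was also lost with no filter (adjusted p = 0.0765), with only the groups compared (adjusted p = 0.0939), with median centring (0.25, adjusted p = 0.109) and with values rescaled to the library sum (0.02, adjusted p = 0.908). Rescaling also ended the control Ig call (0.26, adjusted p = 0.0992). Between high and low beads in anti-Ox40 cultures the difference was -0.21 (adjusted p = 0.189), and it was called without that same replicate 1 (-0.41, adjusted p = 0.00626). It was also called with values rescaled to the library sum (-0.38, adjusted p = 0.0273) and with replicate number as a block (-0.21, adjusted p = 0.0299).

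Of the death ligands, Tnfsf10 (TRAIL) fell at high beads and was lower still with anti-Ox40. At high beads it measured 3.35, 3.27 and 3.64 nRPKM with anti-Ox40, against 4.31, 4.75 and 5.11 with control Ig, with no overlap (-0.37 ± 0.07, limma adjusted p = 0.00153). Low beads gave 8.40, 6.99 and 8.65 with anti-Ox40, against 9.44, 8.51 and 8.68 with control Ig, and the groups overlapped. Without beads all 6 libraries lay between 6.85 and 7.59. Between high and no beads it fell by 0.91 in anti-Ox40 cultures (adjusted p = 4.9e-09) and by 0.53 in control Ig cultures (adjusted p = 4.05e-06). At low beads it rose by 0.26 in control Ig cultures (adjusted p = 0.00493), a call lost with values rescaled to the library sum (0.18, adjusted p = 0.0561). In anti-Ox40 cultures the low-bead difference was 0.12 (adjusted p = 0.154), and without replicate 2 of anti-Ox40 at low beads it was called (0.20, adjusted p = 0.0148).

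Fasl, the ligand of the death receptor Fas, was highest without beads. It ranged from 3.62 to 5.04 nRPKM with anti-Ox40 and from 4.50 to 4.92 with control Ig without beads, and from 1.08 to 1.62 with anti-Ox40 and 1.38 to 1.88 with control Ig at low beads. High beads left 0.835, 0.674 and 0.706 with anti-Ox40, against 1.35, 0.918 and 0.812 with control Ig, which overlapped (-0.21, limma adjusted p = 0.208). Set against no beads, high beads lowered it by 1.57 in anti-Ox40 cultures (adjusted p = 2.95e-09) and by 1.49 in control Ig cultures (adjusted p = 6.78e-09). These differences of log2(nRPKM + 1) understate the fall of so low a gene. The ratio of mean nRPKM at high beads to that at no beads was 0.176 in anti-Ox40 cultures and 0.220 in control Ig cultures. Klrd1, a receptor of NK cells that some T cells also carry, followed the same order of dose. It averaged 30.6 ± 5.30 nRPKM with anti-Ox40 and 30.1 ± 2.69 with control Ig without beads, and 1.86 ± 0.57 with anti-Ox40 and 2.94 ± 0.75 with control Ig at high beads (SD, n = 3). Of the 8 NK cell markers none was at 0 in any library, and 5 were tested. At low against no beads 2 of the 5 were higher and 3 lower under either antibody. Of all genes, 70.8% were called there in anti-Ox40 cultures and 62.3% in control Ig cultures. At high against no beads 4 of the 5 fell and 1 rose under either antibody, where 84.5% and 82.3% of all genes were called. The median of the 5 was then -1.57 in anti-Ox40 cultures and -1.40 in control Ig cultures. The gene that rose at high beads was Gzma, a granzyme that activated T cells also make, by 2.47 in control Ig cultures (adjusted p = 1.46e-09). Gzma averaged 92.6 ± 24.8 nRPKM with anti-Ox40 and 65.7 ± 15.3 with control Ig at high beads (SD, n = 3). The sum of the 8 markers, which includes Gzma, was 44.6 to 59.8 nRPKM at no beads, 26.5 to 38.7 with low beads and 54.4 to 122 with high beads. Ncr1, a defining NK receptor, did not exceed 1.50. Their part in the Fasl values was not tested.

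**Figure D4:**
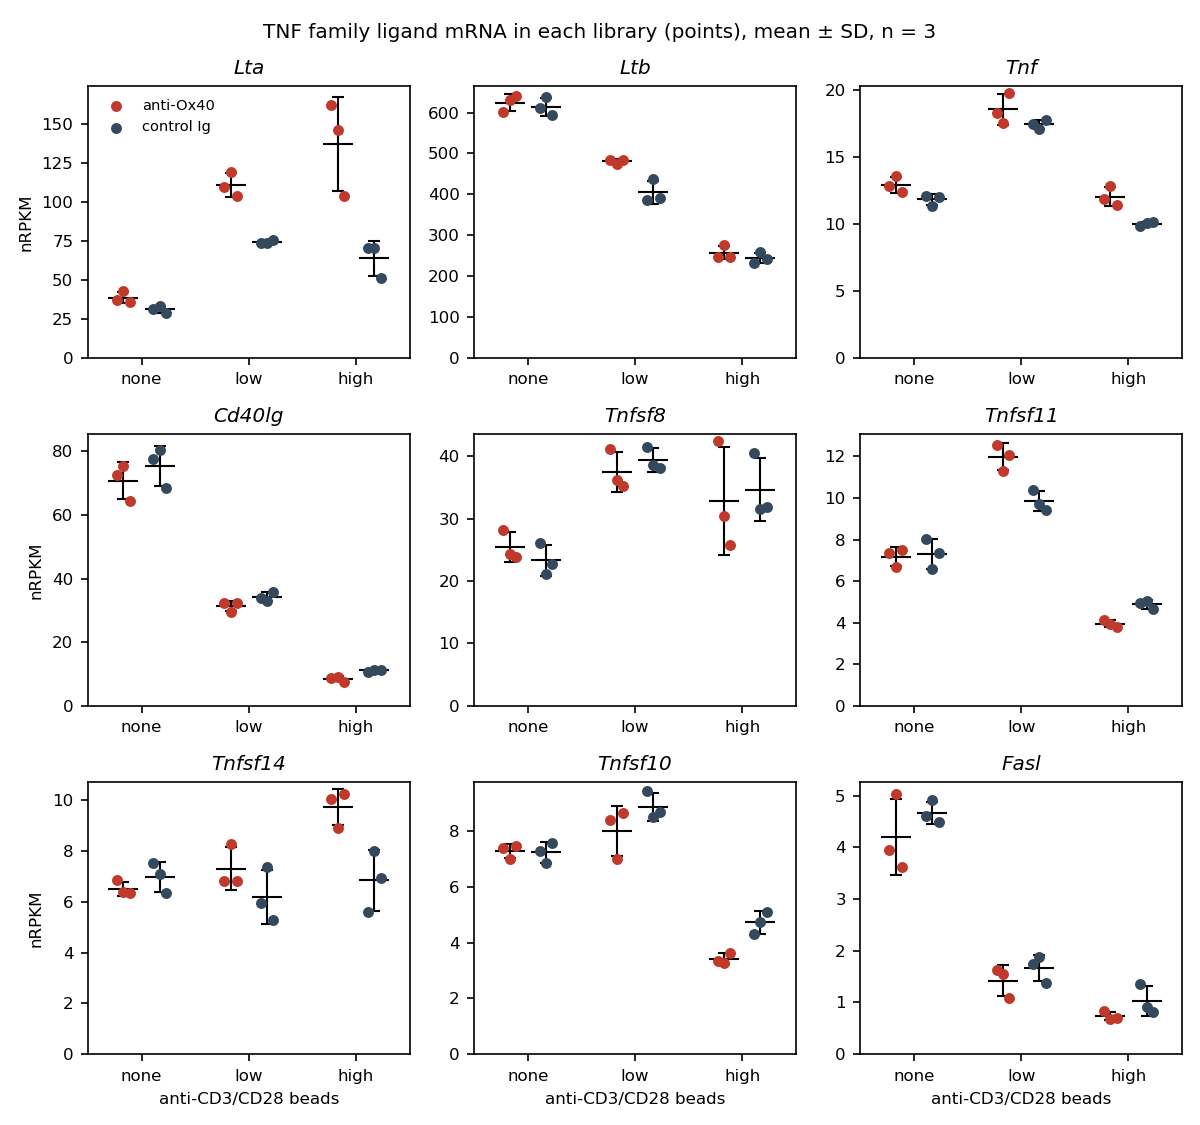
nRPKM of each ligand in the 18 libraries by bead dose (points, libraries; lines, mean ± SD, n = 3 per group; each panel has its own axis from 0). Cd40lg, Ltb and Fasl step down with dose, Tnf and Tnfsf11 peak at low beads, and Lta parts by antibody most at high beads.

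Counted together, the bead response touched most members, as it touched most genes. In anti-Ox40 cultures 4 members were higher and 3 lower at low against no beads, where 70.8% of all genes were called (37.1% higher and 33.7% lower). High against low beads gave 1 higher and 6 lower (71.5% of all genes, 40.3% higher and 31.2% lower), and high against no beads 3 higher and 5 lower (84.5%, 45.2% higher and 39.3% lower). In control Ig cultures the counts were 5 higher and 3 lower at low against no beads, where 62.3% of all genes were called (32.6% higher and 29.8% lower). There were 0 higher and 6 lower at high against low beads (72.5%, 40% higher and 32.5% lower), and 2 higher and 6 lower at high against no beads (82.3%, 43.4% higher and 38.9% lower). The members' median at high against no beads was -0.72 in anti-Ox40 cultures and -0.50 in control Ig cultures, where the median of all genes was 0.06 and 0.04. With values rescaled to the library sum, high against no beads gave 1 higher and 6 lower in anti-Ox40 cultures and 1 higher and 7 lower in control Ig cultures, and high against low beads 0 higher and 7 lower in anti-Ox40 cultures and 0 higher and 8 lower in control Ig cultures. The comparisons within an antibody share their libraries, so they are not independent. Sums of myeloid markers fell with dose beside these results, and their part was not tested.

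Whether the antibody effect itself depended on bead dose was tested as a difference of differences. Between high and low beads 1 of 9 members was called, Tnfsf11 (-0.51 ± 0.09, limma adjusted p = 0.0112), where 3.17% of all genes were (1.47% higher and 1.7% lower). Between high and no beads 3 were called, against 11.1% of all genes (6.4% higher and 4.7% lower). These were Lta (0.78 ± 0.20, adjusted p = 0.0227), Tnfsf14 (0.55 ± 0.16, adjusted p = 0.0427) and Tnfsf10 (-0.38 ± 0.10, adjusted p = 0.0274). Between low and no beads 0 were called, against 0.268% of all genes (0.26% higher and 0.00765% lower), with 2 members and 2307 genes at an unadjusted p under 0.05. Leaving out replicate 2 of control Ig at low beads made that count 1, Ltb (0.28, adjusted p = 0.0213). The Tnfsf11 call held in all 18 fits that left out a library, and leaving out replicate 3 of anti-Ox40 at high beads added Lta (0.70, adjusted p = 0.0306). The count of 3 between high and no beads became 0 without replicate 2 of control Ig at no beads, replicate 3 of control Ig at high beads or replicate 1 of anti-Ox40 at high beads. It became 1 without replicate 1 of control Ig or replicate 1 or 3 of anti-Ox40 at no beads. It was 2 without replicate 2 of anti-Ox40 at no beads, replicate 3 of anti-Ox40 at low beads, replicate 2 or 3 of anti-Ox40 at high beads, or replicate 1 or 2 of control Ig at high beads.

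The high-bead antibody count stood at 6 in each of the 18 fits without a library, but the low-bead count of 3 did not hold. It became 0 without replicate 1 or 3 of either antibody at low beads, and 1 without replicate 2 of anti-Ox40 there. It became 4 without replicate 2 of control Ig. The limma adjusted p of Lta at low beads ranged from 0.00945 to 0.0916 over these fits, that of Ltb from 0.00163 to 0.102 and that of Tnfsf11 from 0.0209 to 0.120. The log2 differences themselves kept their sign, from 0.52 to 0.62 for Lta, 0.22 to 0.31 for Ltb and 0.23 to 0.30 for Tnfsf11. Lung epithelial transcripts were higher with anti-Ox40 at low beads, with 5 of 5 called, against 6.15% of all genes higher. The lung transcripts summed to 62.1, 38.4 and 215 nRPKM there, against 0.014, 22.9 and 25.8 with control Ig. At high beads their sums were 28.5 to 52.6 with anti-Ox40 and 30.4 to 119 with control Ig, and their part in the low-bead results was not tested. Without the 6 libraries richest in B cell markers, 1 per group, the count of antibody differences was 4 at high beads (Lta, Tnf, Cd40lg and Tnfsf10) and 1 at low beads (Lta). In those 12 libraries the high-bead difference was -0.25 ± 0.09 SE for Tnfsf11 (limma adjusted p = 0.107) and 0.44 ± 0.15 for Tnfsf14 (adjusted p = 0.0881). In all 18 libraries these differences were -0.25 ± 0.06 and 0.46 ± 0.11, so the estimates stayed close while the standard errors grew. Between high and low beads the Tnfsf11 difference in antibody effect was then -0.48 (adjusted p = 0.315).

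The receptors of these ligands moved in both directions. Of 12 receptor genes, 10 were tested, and with anti-Ox40 2 were higher and 3 lower at high beads, 2 higher and 1 lower at low beads, and 1 higher without beads. Of all genes, 14.4% were higher and 11.6% lower at high beads, 6.15% higher and 3.44% lower at low beads, and 0.138% higher without beads. Tnfrsf8, which encodes CD30, the receptor of Tnfsf8, rose at every dose, by 0.80 without beads (limma adjusted p = 0.0412), 0.71 at low beads (adjusted p = 0.0116) and 0.66 at high beads (adjusted p = 0.00363). Its high-bead level was 148 ± 9.18 nRPKM with anti-Ox40 and 94.1 ± 11.6 with control Ig (SD, n = 3). Tnfrsf10b, the mouse TRAIL death receptor, rose by 0.58 at high beads (adjusted p = 0.000201), while Tnfrsf23, a TRAIL decoy receptor in mice, fell by 0.38 (adjusted p = 0.00185). Tnfrsf14, the HVEM receptor of Tnfsf14, fell by 0.27 at low beads (adjusted p = 0.0206) and by 0.33 at high beads (adjusted p = 0.0014). Tnfrsf1b, a receptor of Tnf and Lta, fell by 0.34 at high beads (adjusted p = 0.0276). The median of the tested receptors at high beads was 0.04, beside 0.00 over all genes.

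Among 9 other ligands of the family, 3 were tested. At high beads Tnfsf4, the ligand of Ox40, was higher with anti-Ox40 (0.47, limma adjusted p = 0.00577) and Tnfsf13b, the B cell survival factor BAFF, was lower (-0.27, adjusted p = 0.0481). Tnfsf4 averaged 4.13 ± 0.73 nRPKM with anti-Ox40 and 2.68 ± 0.33 with control Ig there, and Tnfsf9 4.26 ± 0.85 with anti-Ox40 and 4.13 ± 0.84 with control Ig (SD, n = 3). Of 9 genes for shedding and processing of the ligands, 0 were called at no and low beads (0.138% and 9.59% of all genes). At high beads 0 were higher and 2 lower, where 26% of all genes were called (14.4% higher and 11.6% lower). The 2 lower genes were Timp3, an inhibitor of the shedding protease (-0.39, adjusted p = 0.0323), and Sppl2a, an intramembrane protease (-0.11, adjusted p = 0.0257).

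The genes whose log2 values ran most like each member over the 18 libraries differed from member to member. Pearson's r, given as a description since libraries share their dose groups and scaling, was 0.976 between Lta and Dennd5a, 0.981 between Ltb and Ids, and 0.948 between Tnf and Zdhhc8. For Cd40lg the nearest gene was Phf1 (0.998), for Tnfsf8 Gfod1 (0.916) and for Tnfsf11 Ifit3 (0.965). Tnfsf14 had the loosest best match, Tigd2 at 0.849. Tnfsf10 ran closest to Agap2 (0.982) and Fasl to Ttyh2 (0.988), with Klrd1 the third nearest to Fasl (0.985).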

How the data were processed

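RNA-seq of 18 libraries was analysed from 1 table of nRPKM values that the authors deposited, which are RPKM values further normalized by them, as its name says. GSNAP and the GRCm38 build are named for the alignment, per the submitters' processing notes. How reads were counted, with which annotation and strand setting, and how libraries were scaled was not stated in those sources. Reads per unit were worked out from whole-read steps in low values, which gives counting error only.

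Genes with at least 1 nRPKM in at least 3 of 18 libraries (13075) were taken to log2(nRPKM + 1), with a pseudocount of 1. A model with 6 group means was fitted with limma 3.58.1 in R 4.3.3 (trend, 12 residual degrees of freedom, 2-sided), with Benjamini-Hochberg adjustment over all genes and calls at an adjusted p under 0.05. The code was tested on simulated data. All 9 members are reported. From each pathway list up to 4 called genes with the smallest adjusted p in a comparison could be named, and for likeness the 3 best matches. Members and lists were chosen with earlier results of these data known, and several lists come from that earlier work.

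Alternatives were pseudocounts of 0.1 and 0.5, no filter, a stricter filter, no trend, only the groups compared, rescaling to the library sum, median centring, a replicate block and each library left out. Promoters came from RefSeq on GRCm38.p6, and gene positions from an annotation of GRCm38. No batch is given in the labels.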

Additional observations from a re-analysis of the deposited data

Results flagged for a closer look

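For 4 ligand values the effect of anti-Ox40 differed between bead doses by a test of the difference itself (limma, Benjamini-Hochberg adjustment over all genes). Tnfsf11 differed by -0.51 on the log2 scale between high and low beads (adjusted p = 0.0112), with all 3 anti-Ox40 libraries above all 3 control Ig libraries at low beads and below them at high beads. Between high and no beads, Lta differed by 0.78 (adjusted p = 0.0227), Tnfsf14 by 0.55 (adjusted p = 0.0427) and Tnfsf10 by -0.38 (adjusted p = 0.0274). For Lta the anti-Ox40 libraries were above the control Ig libraries at both doses. For Tnfsf14 and Tnfsf10 the groups overlapped without beads and were apart at high beads. Of all genes, 3.17% were called between high and low beads and 11.1% between high and no beads. Over the 18 fits that left out a library, Tnfsf11 was called in 18, Lta in 15, Tnfsf10 in 10 and Tnfsf14 in 8. With no filter 0 members were called between high and no beads. Without the 6 libraries richest in B cell markers 0 were called for either difference.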

How the results depend on the processing

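With no filter, 0 members were called for the antibody effect at low beads and 0 for its difference between high and no beads. With only the groups compared, 1 was called at low beads. Without the 6 libraries richest in B cell markers, an alternative chosen after seeing the data, 1 was called at low beads, 0 for the difference between high and low beads and 0 for that between high and no beads. Over the 18 fits that left out a library, the count ran from 0 to 4 for the antibody effect at low beads. For the differences of that effect it ran from 0 to 1 between low and no beads, from 1 to 2 between high and low beads and from 0 to 3 between high and no beads. The cause was not tested.

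Some uncalled values changed sign. Rescaling to the library sum brought the median of all genes at high against no beads as low as -0.21, where it was 0.06 and 0.04 in the main fit. It gave -0.049 for Tnfsf14 at high against low beads with control Ig. It gave -0.013 for Tnfsf10 at low against no beads with anti-Ox40, and 0.0012 for Tnfsf8 in the difference of the antibody effect between high and low beads. Without the 6 libraries the antibody effect was -0.019 for Ltb without beads and 0.0065 for Tnfsf8 at high beads, and its difference between high and low beads 0.056 for Tnfsf8. Leaving out single libraries, the antibody effect ran from -0.087 to 0.037 for Tnfsf11, -0.027 to 0.038 for Tnfsf10 and -0.00038 to 0.051 for Ltb without beads, and from -0.29 to 0.061 for Tnfsf8 at high beads. High against no beads with control Ig ran from -0.14 to 0.086 for Tnfsf14. Differences of the antibody effect ran from -0.095 to 0.039 for Cd40lg, -0.090 to 0.10 for Fasl and -0.079 to 0.0040 for Tnf between low and no beads. They ran from -0.22 to 0.13 for Tnfsf8 and -0.18 to 0.040 for Fasl between high and low beads, and from -0.16 to 0.031 for Fasl and -0.0036 to 0.090 for Ltb between high and no beads.

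Median centring made the split at high against no beads with anti-Ox40 2 higher and 6 lower. Rescaling to the sum lost the bead calls of Tnfsf8 (0.02) and Tnfsf14 (0.23) at high against no beads and of Tnfsf14 at high against low beads (0.22, adjusted p = 0.085), all with anti-Ox40. With control Ig it lost those of Tnfsf8 at high against no beads (0.26) and Tnfsf10 at low against no beads (0.18). It added Tnfsf8 at high against low beads, with anti-Ox40 (-0.38) and control Ig (-0.38). Also added with control Ig were Lta at high against low beads (-0.43) and Tnfsf14 at high against no beads (-0.29). Tnf at high against no beads (-0.39) was added with anti-Ox40. Replicate numbers follow accession order and pair nothing by the labels. Deviations from the group mean correlated at -0.16 to 0.35 between groups within a number, and at -0.28 to 0.20 across numbers. Among libraries of other groups, 18 of 18 libraries correlated best with one of their own number. This pattern of shared numbers comes from the data and not from the labels, and the main fit does not use it. Replicate 3 was also the library richest in B cell markers in every group. With the replicate block the high-bead antibody count stayed at 6, and 9 in place of 7 members were called at high against low beads with anti-Ox40, the added ones being Lta (0.28, adjusted p = 0.0227) and Tnfsf8 (-0.21, adjusted p = 0.0299). Fasl, at about 42 reads in its lowest library, is limited most by depth, and the stricter filter drops it.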

Other observations

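Genes downstream of TNF family receptors were counted in the same fits. Of 13 NF-kB and NFAT genes, with anti-Ox40 6 were higher and 2 lower at high beads, 2 higher and 1 lower at low beads, and 0 called without beads. Of all genes, 26% were called at high beads (14.4% higher and 11.6% lower), 9.59% at low beads (6.15% higher and 3.44% lower) and 0.138% without beads. Nfkb2, which encodes the precursor of the noncanonical NF-kB subunit, averaged 62.3 ± 8.63 nRPKM with anti-Ox40 and 30.7 ± 4.51 with control Ig at high beads (SD, n = 3), a log2 difference of 1.00 (limma adjusted p = 2.90e-05). At low beads it differed by 0.64 (adjusted p = 0.00458). Tnfaip3, a deubiquitinating inhibitor of NF-kB, rose by 0.59 at high beads (adjusted p = 0.00039), and Nfatc1, a calcium-regulated factor, fell by 0.38 (adjusted p = 0.000201). The list's median at high beads was 0.10, beside 0.00 over all genes.

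Of 13 TRAF adaptors and death domain proteins, 0 were called with anti-Ox40 at no and low beads (0.138% and 9.59% of all genes). At high beads 5 were higher and 2 lower, where 26% of all genes were called (14.4% higher and 11.6% lower). Birc3, an inhibitor of apoptosis that binds TRAFs, averaged 44.2 ± 0.77 nRPKM with anti-Ox40 and 32.2 ± 2.52 with control Ig (SD, n = 3; log2 difference 0.45, limma adjusted p = 0.000123). Cflar, an inhibitor of death receptor signalling, rose by 0.41 (adjusted p = 0.000198), and Traf5 fell by 0.33 (adjusted p = 0.0109). Of 9 RNA-binding regulators of these mRNAs, 1 was higher and 1 lower at high beads, where 26% of all genes were called. At low beads 2 were higher and 3 lower, where 9.59% of all genes were called. Zfp36l1, a relative of the protein that destabilises Tnf mRNA, fell by 0.41 at high beads (adjusted p = 0.000136), and Elavl1, a stabilising protein, rose by 0.19 (adjusted p = 0.00219).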
